A study of Mus musculus with 9 samples.

Results

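The 41 genes described here encode the machinery of mitosis. They comprise the kinases and cyclins that start it, the spindle checkpoint, the centromere and kinetochore, the chromosomal passenger complex, spindle motors, the cytokinesis apparatus and the anaphase machinery, together with 2 transcription factors of the mitotic programme and with Top2a and Mki67. A probe set was taken for a gene when that gene was its only annotated symbol, and each gene was read from its probe set with the highest mean signal over the 9 arrays. The same rule gave 18193 genes in all, and 40 of the 41 listed genes were among them. Ccnb1, the cyclin B1 gene, is not analysed here.

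The signals came from Affymetrix Mouse Genome 430 2.0 arrays, on which short probes, mostly near the 3′ ends of transcripts, capture labelled cRNA made from total RNA. The 9 arrays fell into 3 groups of 3, and all cells were of the C57BL/6 strain and were kept in N2B27, a serum-free medium. Embryonic stem cells (ESC), which represent the naive pluripotent state, grew on gelatine with 1000 U/ml LIF plus 250 ng/ml Wnt3a protein. Epiblast stem cells (EpiSC), which represent the later, primed state, grew on plates coated with gelatine and serum, in 20 ng/ml Activin A plus 12 ng/ml bFGF, and received either IWP2 or its vehicle. IWP2 inhibits Porcupine, the enzyme that attaches the lipid that Wnt proteins need in order to be secreted, so the comparison with vehicle asks what happens to these transcripts when secretion of the cells' own Wnt is blocked. No dose of IWP2 and no length of treatment is given by the labels. ESC and EpiSC differed in medium and coating as well as in cell type, and in the signals of sex-linked genes given with the marker genes below. In every comparison with ESC these cannot be told apart. The labels call the 3 arrays of a group biological replicates without saying what was separate, so the p-values below measure the spread between these samples.

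Genes of mitosis are transcribed late in the cell cycle and are held silent in resting cells by the DREAM complex, whose MuvB core later joins B-Myb, the product of Mybl2, and FoxM1 to switch them on. Their promoters often hold a short element named CHR (cell cycle genes homology region), to which MuvB binds, and CCAAT boxes, to which the factor NF-Y binds. Mouse pluripotent cells divide fast, with a short G1 phase, and express these genes strongly.

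RefSeq promoter windows, from 250 bases before to 50 bases after the annotated start, were at hand for 32 of the 40 genes. Of these 32 genes, 25 (78.1%) held a CHR match, written as TTTGAA or TTCGAA on either strand, against 5854 of 27025 genes of the whole table (21.7%). A CCAAT match on either strand was found in 23 members (71.9%), against 41.1% of all genes, and both elements stood together in 22 members (68.8%), against 9.65% of all genes. An E2F match (TTTCCCGC, TTTGGCGC, TTTGCCGC or TTTCGCGC, either strand) was present in 1 member, Cdk1, which is 3.12% of the 32 members, against 2.6% of all genes. In the members' windows a single pair of matches to different motifs shared a base. With 1 window a gene, 52 of 53 CCAAT matches lay before the start, at a median position of -68 over all 53, while 18 of 34 CHR matches lay before it and 16 after it, at a median of -10.0. The table holds 2 windows for Bub3, Ect2 and Prc1, and the one of lowest coordinate was used for positions. In 30 genes the start of the window lay at most 500 bases inside the gene's outermost RefSeq start, but in Pttg1 it lay 1482 bases and in Kif2c 3852 bases inside it, so these windows are not those of the outermost start. These are matches of letters and not measured binding sites, and where none was found, only these letters are missing from the window.

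The windows of 5 members are shown, 5′ to 3′ on the gene's own strand, because they hold the extremes of the expression data below: Ccnb2, Kif2c and Mki67 had the largest rises with IWP2, Mybl2 the largest difference between ESC and EpiSC, and Birc5 the lowest IWP2 value relative to vehicle. Capitals mark CHR and CCAAT matches on either strand. In RefSeq coordinates of GRCm38.p6 they are chr9:70421505-70421804 (minus strand) for Ccnb2, chr4:117178723-117179022 (minus) for Kif2c, chr7:135716330-135716629 (minus) for Mki67, chr2:163054385-163054684 (plus) for Mybl2 and chr11:117848987-117849286 (plus) for Birc5.
Ccnb2: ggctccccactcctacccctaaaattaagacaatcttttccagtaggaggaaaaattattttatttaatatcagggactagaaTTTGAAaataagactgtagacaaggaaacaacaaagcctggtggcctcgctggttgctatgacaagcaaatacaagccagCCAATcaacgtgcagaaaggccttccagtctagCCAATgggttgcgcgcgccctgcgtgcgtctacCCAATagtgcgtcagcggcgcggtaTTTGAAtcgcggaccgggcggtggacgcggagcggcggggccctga
Kif2c: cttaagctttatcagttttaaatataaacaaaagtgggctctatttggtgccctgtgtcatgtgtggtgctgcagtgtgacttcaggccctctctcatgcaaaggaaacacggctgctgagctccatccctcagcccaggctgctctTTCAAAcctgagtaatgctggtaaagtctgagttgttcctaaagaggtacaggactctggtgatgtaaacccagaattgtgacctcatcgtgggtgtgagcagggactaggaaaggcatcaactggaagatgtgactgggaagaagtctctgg
Mki67: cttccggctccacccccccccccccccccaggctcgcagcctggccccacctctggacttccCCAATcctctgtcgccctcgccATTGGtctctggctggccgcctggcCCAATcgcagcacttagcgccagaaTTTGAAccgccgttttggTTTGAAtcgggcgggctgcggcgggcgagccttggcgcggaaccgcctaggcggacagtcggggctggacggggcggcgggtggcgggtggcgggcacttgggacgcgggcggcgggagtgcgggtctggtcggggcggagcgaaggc
Mybl2: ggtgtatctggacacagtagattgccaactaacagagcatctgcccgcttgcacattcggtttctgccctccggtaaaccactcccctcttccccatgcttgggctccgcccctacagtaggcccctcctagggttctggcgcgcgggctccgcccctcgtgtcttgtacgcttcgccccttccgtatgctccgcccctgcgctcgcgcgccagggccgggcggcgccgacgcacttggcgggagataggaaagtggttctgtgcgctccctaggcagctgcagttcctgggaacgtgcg
Birc5: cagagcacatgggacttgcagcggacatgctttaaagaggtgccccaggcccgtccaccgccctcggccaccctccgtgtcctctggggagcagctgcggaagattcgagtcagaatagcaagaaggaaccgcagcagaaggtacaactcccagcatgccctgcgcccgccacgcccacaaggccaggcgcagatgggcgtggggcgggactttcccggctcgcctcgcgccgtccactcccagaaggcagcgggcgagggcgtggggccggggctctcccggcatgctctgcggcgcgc
Ccnb2 and Mki67 each held 2 CHR and 3 CCAAT matches, the internal window of Kif2c held 1 CHR match and no CCAAT match, and Mybl2 and Birc5 held neither. The share of genes with a CHR match was 84.0% among the 25 members with a window that rose with IWP2 (21 genes) and 57.1% among the 7 that were not called (4 genes).

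**Figure D1:**
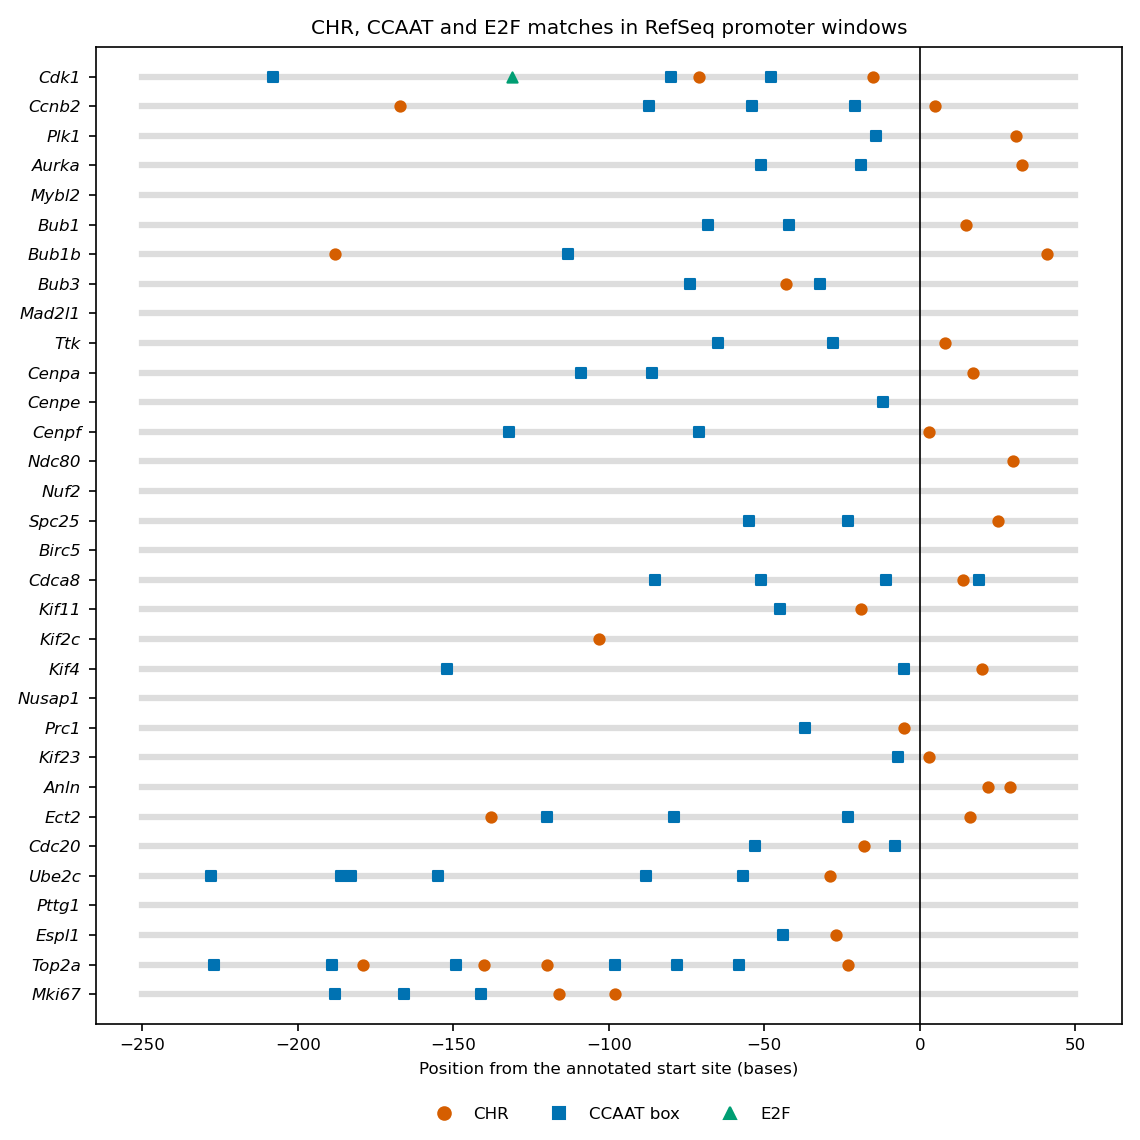
Positions of CHR (circles), CCAAT (squares) and E2F (triangle) matches in the RefSeq promoter windows of 32 mitosis and spindle genes, in bases from the annotated start (vertical line), 1 window a gene. CCAAT matches sit mostly upstream of the start, CHR matches on both sides of it, and Mybl2, Mad2l1, Nuf2, Birc5, Nusap1 and Pttg1 hold none of the 3.

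The arrays of a group were close to each other, with correlations over all probe sets of 0.997 to 0.998, against 0.982 to 0.985 between IWP2 and vehicle arrays and 0.927 to 0.931 between ESC and EpiSC arrays. Array medians lay between 5.22 and 5.26, and no array stood apart. All 8 naive pluripotency markers were higher in ESC than in either EpiSC group and all 7 primed epiblast markers were lower, so the labels fit the markers. With IWP2, where 16.8% of all genes fell and 16.6% rose, 4 of the 7 primed markers fell and 1 rose against vehicle. The log2 of their summed linear signal was 11.56 to 11.63 in ESC, 13.96 to 14.02 with IWP2 and 14.85 to 14.88 with vehicle. Of the 8 naive markers, 2 fell and 1 rose (25% and 12.5%, near the shares of all genes). The same measure was 15.21 to 15.24 in ESC, 7.39 to 7.48 with IWP2 and 7.62 to 7.71 with vehicle. The Y-linked genes Eif2s3y, Kdm5d and Uty averaged 2.29, 2.55 and 2.41 in ESC, 9.82, 8.42 and 7.50 with IWP2 and 9.83, 8.19 and 7.62 with vehicle. Xist, the RNA of X inactivation, averaged 9.07 in ESC, 6.73 with IWP2 and 5.14 with vehicle. Among markers of other cells, 7 of 10 endoderm genes fell with IWP2 and none rose, and their summed level (log2) was 8.19 to 8.32 in ESC, 7.90 to 7.96 with IWP2 and 12.25 to 12.32 with vehicle. Of 6 primitive streak and mesoderm genes, 4 fell and 1 rose, with summed levels of 7.21 to 7.24 in ESC, 6.88 to 7.12 with IWP2 and 10.77 to 11.25 with vehicle. Of 8 fibroblast genes, 4 fell and 2 rose (7.996 to 8.15 in ESC, 10.26 to 10.40 with IWP2 and 11.30 to 11.81 with vehicle). Of 5 neuron genes, 3 rose and none fell (8.41 to 8.51 in ESC, 9.24 to 9.36 with IWP2 and 8.67 to 8.74 with vehicle). The endoderm gene Sox7 lay below the lower quartile of all probe sets in every group. The streak genes Gsc and Lhx1 and the fibroblast gene Lum did so in ESC and with IWP2. Tbx6 did so in ESC and with vehicle, and the neuron gene Snap25 and the primed gene Fgf5 in ESC. The naive genes Zfp42, Nr0b1, Tbx3 and Prdm14 did so in both EpiSC groups, and Prdm14 was the naive gene that rose with IWP2. The difference between the 3′ and 5′ probe sets of Actb, a measure of RNA integrity, was 0.639 to 0.665 in ESC, 0.640 to 0.689 with IWP2 and 0.533 to 0.587 with vehicle. For Gapdh it was -0.040 to 0.0035 in ESC, -0.032 to 0.0025 with IWP2 and -0.055 to -0.025 with vehicle. The Gapdh ranges overlapped. The part of these shifts in the results below was not tested, and in such bulk samples fewer cells of a type and less RNA per cell cannot be told apart.

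Most of the mitotic genes were slightly higher with IWP2 than with vehicle. Of the 40 members, 31 rose and none fell at an adjusted p below 0.05 (limma, Benjamini-Hochberg over 18193 genes), whereas 16.6% of all genes rose and 16.8% fell. The member median was 0.28 on the log2 scale, with a range of -0.14 to 0.65, and the median of all genes was 0.03. No member reached a 2-fold change, which 3.72% of all genes did. In 34 members every IWP2 array lay above every vehicle array (24.7% of all genes), and in 2, Birc5 and Kif23, every IWP2 array lay below (22.2%). The median member signal was 10.53, 10.56 and 10.60 on the IWP2 arrays and 10.27, 10.19 and 10.27 on the vehicle arrays, so the groups did not overlap.

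Member signals were high on these arrays: each gene's mean lay above the median of all genes, and 30 of them lay in a set of 2033 genes with mean signals of at least 9.69, the lower quartile of the members' means. Within these 2033 genes 21.5% rose and 22.1% fell with IWP2, with a median difference of 0.00, while 24 of the 30 members rose and none fell, with a median of 0.33. Of the 10 members outside that set, 7 rose and none fell.

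**Figure D2:**
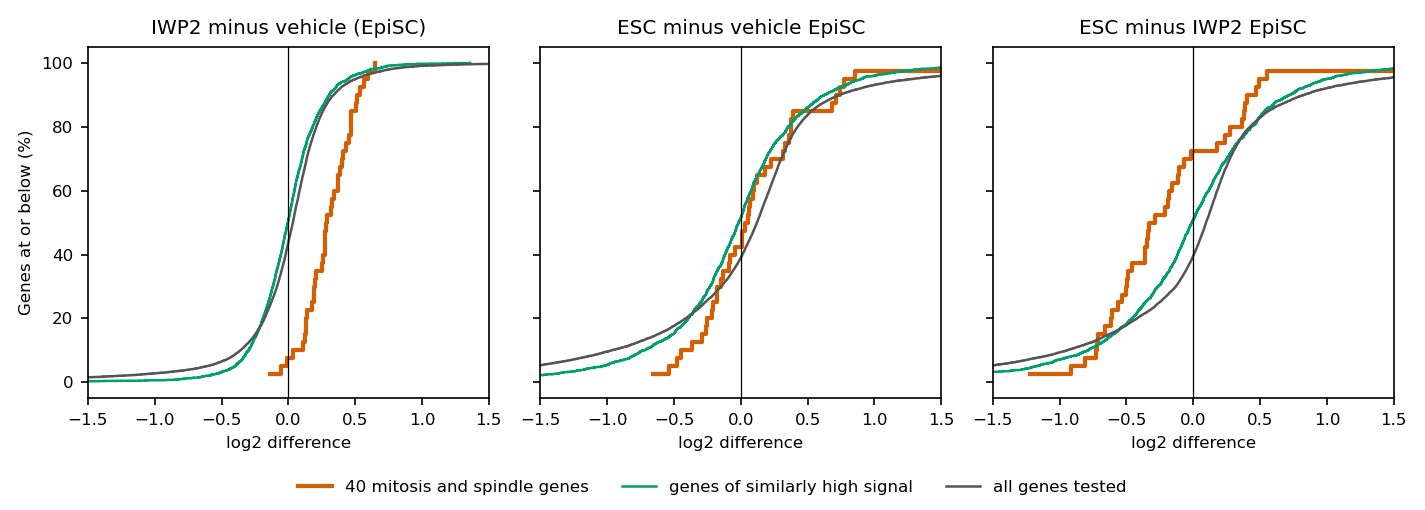
Cumulative share of genes (y axis, %) at or below each log2 difference (x axis, shown from -1.5 to 1.5) for the 40 mitosis and spindle genes, the 2033 genes of similarly high signal and all 18193 genes, in each comparison. The member curve lies to the right of both others for IWP2 minus vehicle (median 0.28), near them for ESC minus vehicle (0.04) and to the left for ESC minus IWP2 (-0.31).

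ESC and vehicle EpiSC differed in both directions. In ESC 14 members were higher and 13 lower than in vehicle EpiSC (limma, adjusted p below 0.05), where 38.7% of all genes were higher and 27.9% lower, so the member shares of 35% and 32.5% lay near these. Their median was 0.04, with a range of -0.66 to 3.50, against 0.12 for all genes. In 18 members all ESC arrays lay above all vehicle arrays and in 15 below (41.6% and 29.4% of all genes). Mybl2 alone differed by 2-fold or more (16.5% of all genes did). Among the 30 highly expressed members, 8 were higher and 11 lower, where 33.5% and 37.5% of the 2033 genes were. The split rests on the scaling: with every array centred on the median of its tested genes, 22 members were higher and 6 lower, and the median of all genes moved to 0.24 with it. With arrays centred on the 2033 highly expressed genes, an alternative added after the data were seen, the counts were again 14 and 13. Median centring ended the lower call of 7 members, Bub1, Cdca8, Cenpa, Kif11, Mad2l1, Prc1 and Top2a, and added a higher call for 8, Aurka, Ccna2, Cdc20, Cdk1, Foxm1, Kif20a, Kif2c and Nusap1.

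ESC set against IWP2-treated EpiSC were mostly lower. Of the 40 members, 24 were lower in ESC and 11 higher (26.9% and 35.2% of all genes), with a median of -0.31 and a range of -1.22 to 3.24, where all genes had a median of 0.10. Mybl2 (higher) and Mki67 (lower) differed by at least 2-fold, against 17.3% of all genes. In 11 members all ESC arrays lay above all IWP2 arrays and in 27 below (38.2% and 28.9% of all genes). Among the 30 highly expressed members, 6 were higher and 20 lower, against 37.9% and 38% of the 2033 genes. Each of the comparisons shares its arrays with the other two, so they are not independent. The mean signal was highest with IWP2 in 29 members, in ESC in 11 and with vehicle in 0. It was lowest in ESC in 17, with IWP2 in 3 and with vehicle in 20. These counts were not made over all genes, so they have no background share beside them.

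**Figure D3:**
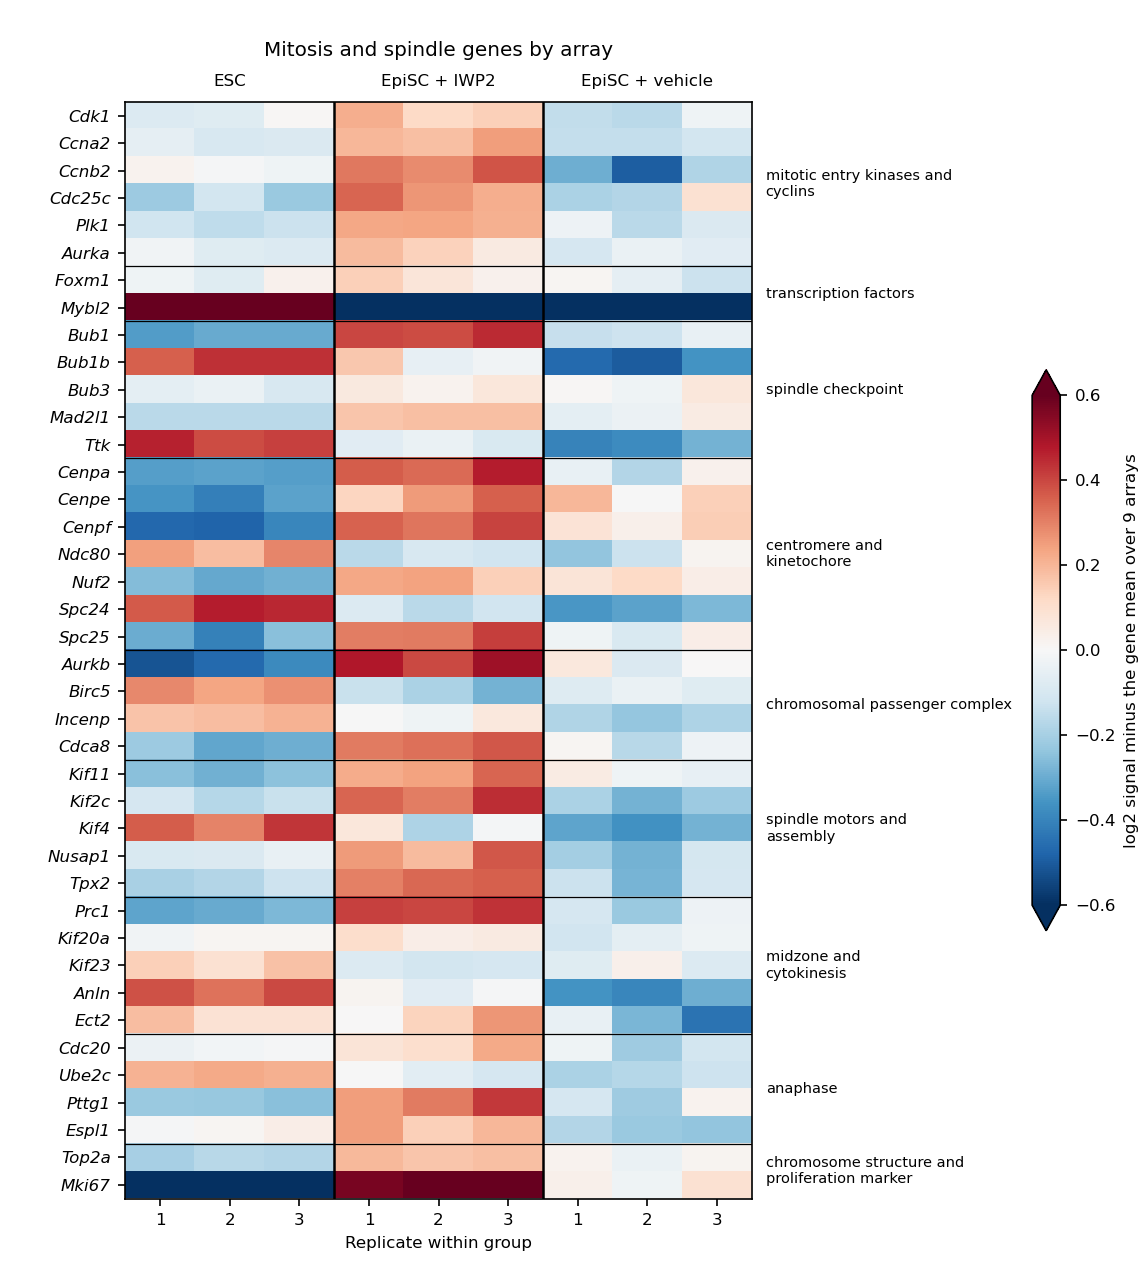
Log2 signal of each of the 40 members on each array minus the gene's mean over the 9 arrays (colour, cut at -0.6 and 0.6), with genes ordered by role and arrays by group. The IWP2 columns are warm for most genes, while the ESC columns hold both strong highs (Mybl2, Bub1b, Ttk, Spc24, Anln) and strong lows (Mki67, Aurkb, Cenpf).

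**Figure D4:**
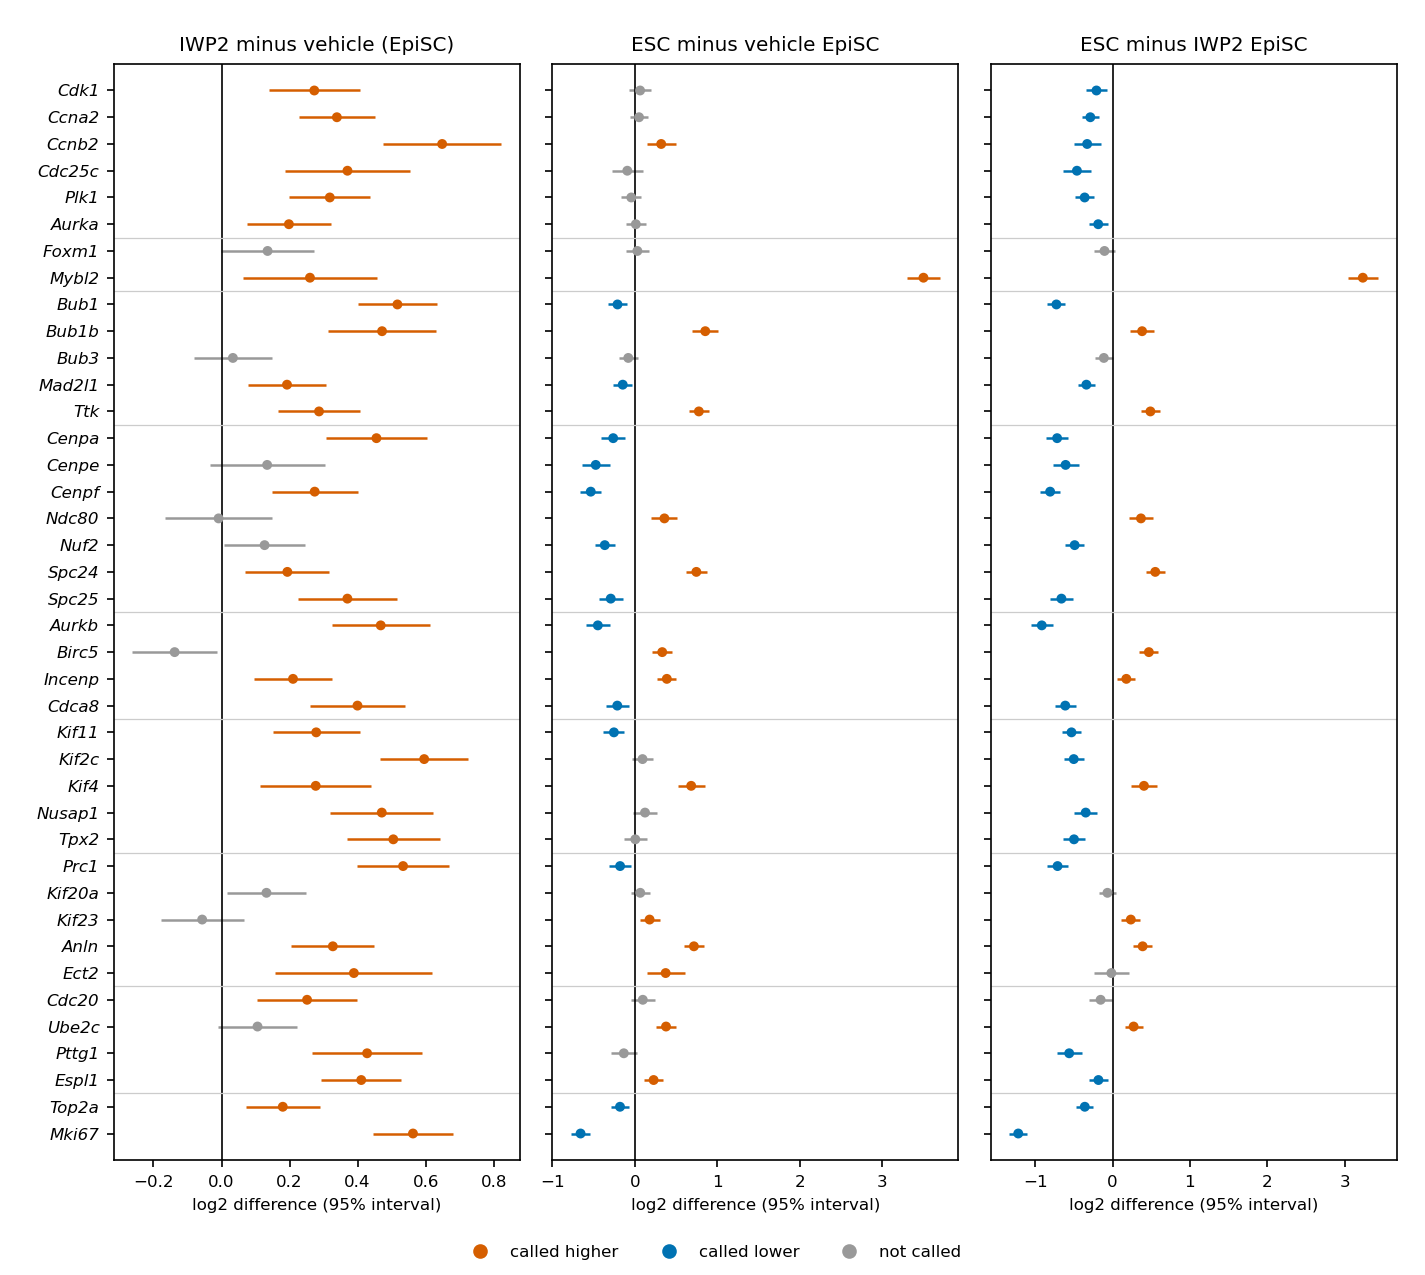
Log2 difference (points) with its 95% interval (lines) for each member in the 3 comparisons, coloured by whether it was called higher, called lower or not called at an adjusted p below 0.05 (limma). Of the 40 intervals of IWP2 minus vehicle, 33 lie right of 0, 6 include it and 1 (Birc5) lies left of it, and those of ESC minus vehicle fall on both sides, with Mybl2 far to the right at 3.50.

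All 6 measured kinases, cyclins and activators of mitotic entry rose with IWP2 (range 0.20 to 0.65), and all 6 were lower in ESC than with IWP2. Ccnb2, cyclin B2, which activates Cdk1, had log2 signals of 10.92, 10.89 and 10.87 in ESC, 11.22, 11.18 and 11.28 with IWP2 and 10.61, 10.41 and 10.72 with vehicle. The 3 groups did not overlap, and ESC lay between the EpiSC groups. The rise with IWP2 was 0.65 ± 0.078 (SE; n = 3 arrays a group; limma adjusted p = 0.00017), a 1.57-fold change and the largest among the members. ESC exceeded vehicle by 0.32 (adjusted p = 0.00484). Ccna2, cyclin A2, which pairs with Cdk2 and then with Cdk1, read 11.26, 11.22 and 11.23 in ESC, 11.51, 11.49 and 11.57 with IWP2 and 11.17, 11.17 and 11.21 with vehicle. The IWP2 arrays stood clear above the others, and ESC and vehicle lay close together. Its rise was 0.34 ± 0.050 (limma adjusted p = 0.000612), and ESC differed from vehicle by 0.05 (adjusted p = 0.386). Another Ccna2 probe set, at a mean signal of 11.17, was not called for IWP2 minus vehicle (0.14, limma adjusted p = 0.0916). That probe set was lower in ESC than with vehicle (-0.26, adjusted p = 0.00256).

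Cdk1, the kinase that drives entry into mitosis, gave 11.22, 11.23 and 11.31 in ESC, 11.52, 11.43 and 11.45 with IWP2 and 11.16, 11.14 and 11.28 with vehicle. IWP2 arrays were above all others, and ESC and vehicle overlapped. The difference between IWP2 and vehicle was 0.27 ± 0.060 (limma adjusted p = 0.00631) and that between ESC and vehicle 0.06 (95% interval -0.07 to 0.20). Plk1, polo-like kinase, which acts in centrosome maturation and Cdk1 activation, read 9.82, 9.79 and 9.81 in ESC, 10.17, 10.18 and 10.16 with IWP2 and 9.91, 9.78 and 9.86 with vehicle. It too was highest with IWP2 with no overlap, by 0.32 ± 0.053 over vehicle (limma adjusted p = 0.0013), while ESC and vehicle overlapped (difference -0.04, 95% interval -0.16 to 0.08). Cdc25c, the phosphatase that removes inhibitory phosphates from Cdk1, rose by 0.37 and Aurka, the centrosomal Aurora kinase, by 0.20. The call of Aurka was lost when vehicle array 1, IWP2 array 1 or IWP2 array 2 was left out. In the mean of its 2 probe sets Aurka was higher in ESC than with IWP2, by 0.20, where the chosen probe set was lower by 0.19.

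The transcription factors split. Mybl2, which encodes B-Myb, had signals of 10.64, 10.77 and 10.80 in ESC, 7.65, 7.50 and 7.35 with IWP2 and 7.35, 7.19 and 7.17 with vehicle. All ESC arrays were far above all EpiSC arrays, which differed little among themselves, and IWP2 array 3 and vehicle array 1 overlapped. ESC exceeded vehicle by 3.50 ± 0.088 (limma adjusted p = 3.69e-10), an 11.3-fold difference, and IWP2 by 3.24 (adjusted p = 5.58e-10). A further probe set of Mybl2 gave 3.24 and 3.10. The rise with IWP2 was 0.26 (adjusted p = 0.0459) and was lost under 11 of the 22 alternatives that include this gene, among them leaving out vehicle array 2 or 3, IWP2 array 1 or 2 or ESC array 2 or 3. Foxm1, the forkhead factor of the G2 phase, read 6.93, 6.88 and 6.98 in ESC, 7.10, 7.03 and 6.98 with IWP2 and 6.97, 6.90 and 6.83 with vehicle. IWP2 lay just above vehicle without overlap, and ESC overlapped both. No comparison was called with this probe set, with 0.14 for IWP2 minus vehicle (limma adjusted p = 0.119, 95% interval 0.00 to 0.27) and 0.03 for ESC minus vehicle (95% interval -0.11 to 0.17). Of the 3 further Foxm1 probe sets, 2 were called lower in ESC than with vehicle (-0.76 and -0.15) and 1 was not called (0.02). The mean of all 4 gave -0.22 for ESC minus vehicle, which was called (limma adjusted p = 0.00362). The same 2 probe sets were called lower in ESC than with IWP2 (-0.99 and -0.35). For IWP2 minus vehicle, 1 of the 3 further probe sets was called higher (0.20, limma adjusted p = 0.0271). The others were not called there (0.23 and 0.05).

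**Figure D5:**
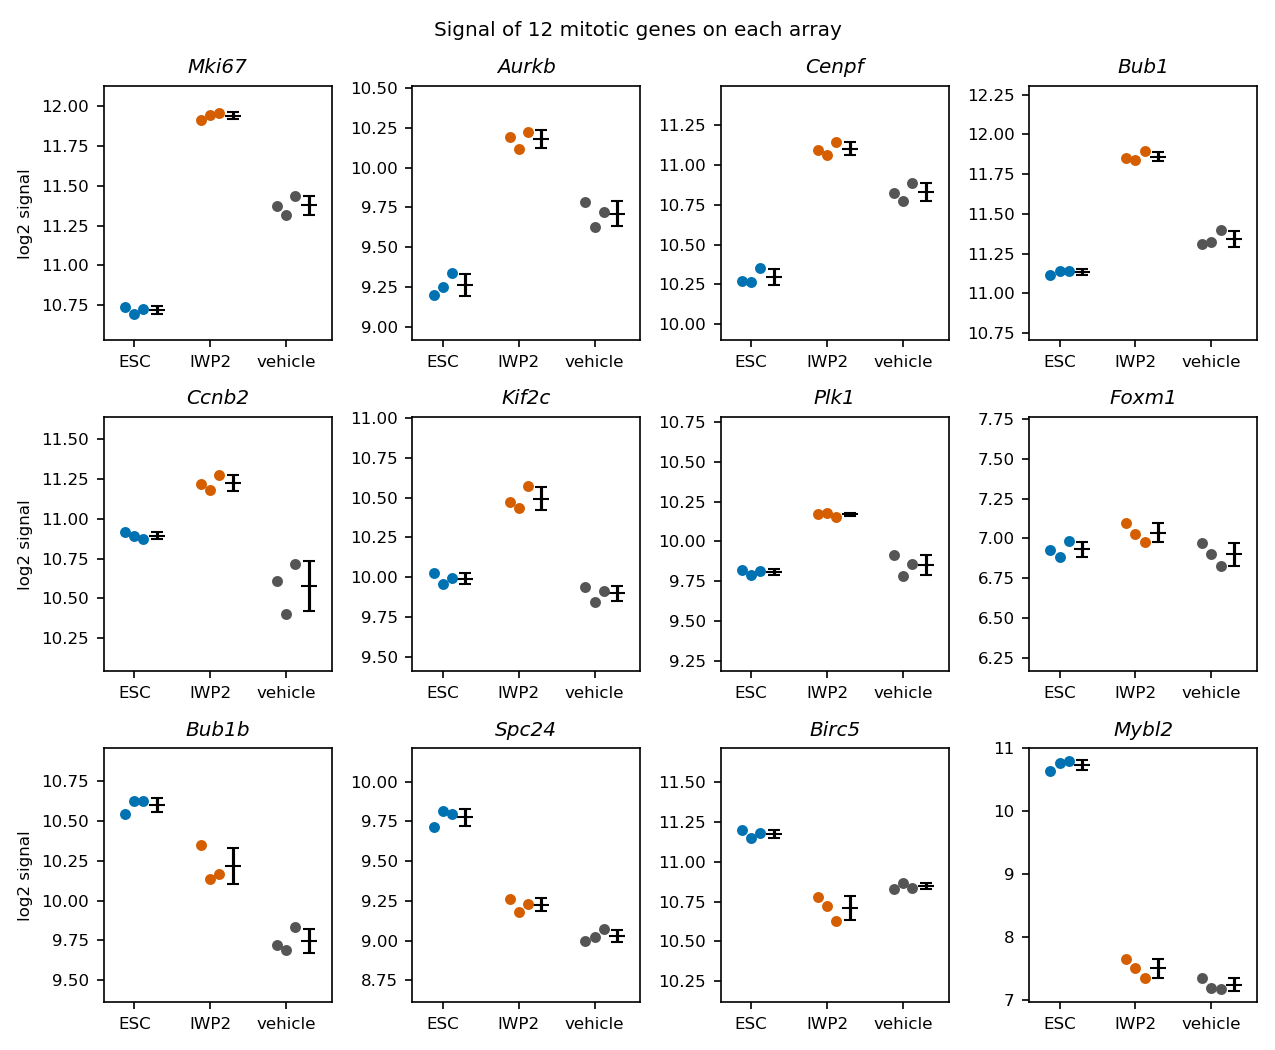
Log2 signal of 12 members on each array (points), with the group mean and SD beside them (bars, n = 3), for ESC, IWP2-treated EpiSC and vehicle EpiSC, each panel with its own y axis. Mki67, Aurkb, Cenpf and Bub1 are highest with IWP2 and lowest in ESC, Bub1b, Spc24 and Mybl2 are highest in ESC, and Birc5 is lowest with IWP2.

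Genes of the spindle checkpoint, which holds back anaphase until every chromosome is attached, rose with IWP2 in 4 of 5 cases, but ESC stood above both EpiSC groups for some and below both for others. Bub1, the checkpoint kinase of the kinetochore, had signals of 11.11, 11.14 and 11.14 in ESC, 11.85, 11.84 and 11.89 with IWP2 and 11.31, 11.32 and 11.40 with vehicle. The groups were apart, with IWP2 highest and ESC lowest. Bub1 rose by 0.52 ± 0.052 with IWP2 (limma adjusted p = 4.99e-05), and ESC lay below vehicle by 0.21 (adjusted p = 0.00498). That second difference was -0.089, and not called, with median centring, and -1.77 in the mean of all Bub1 probe sets. Bub1b, which encodes the checkpoint protein BubR1, read 10.55, 10.63 and 10.63 in ESC, 10.35, 10.14 and 10.17 with IWP2 and 9.72, 9.69 and 9.83 with vehicle. Here ESC was highest, IWP2 in between and vehicle lowest, again without overlap. ESC exceeded vehicle by 0.85 ± 0.071 (limma adjusted p = 2.56e-06), and IWP2 exceeded vehicle by 0.47 (adjusted p = 0.000716).

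Ttk, the kinase Mps1 that starts checkpoint signalling, followed the order of Bub1b, with 9.87, 9.80 and 9.83 in ESC, 9.34, 9.37 and 9.32 with IWP2 and 9.01, 9.04 and 9.13 with vehicle. Its difference was 0.78 ± 0.054 for ESC minus vehicle (limma adjusted p = 6.8e-07) and 0.29 for IWP2 minus vehicle (adjusted p = 0.0027). Mad2l1, which encodes the Mad2 inhibitor of Cdc20, followed that of Bub1, with 11.36, 11.36 and 11.36 in ESC, 11.69, 11.70 and 11.70 with IWP2 and 11.46, 11.48 and 11.57 with vehicle. IWP2 exceeded vehicle by 0.19 ± 0.051 (limma adjusted p = 0.0158) and ESC lay below vehicle (-0.15, adjusted p = 0.0273). The first call was lost without vehicle array 1, and the second without vehicle array 3 or any single ESC array. Bub3, the partner of Bub1 and BubR1, was called in no comparison with the probe set used (IWP2 minus vehicle 0.03, 95% interval -0.08 to 0.15). Further Bub3 probe sets at mean signals of 8.03 and 5.95 were called lower in ESC than with vehicle (-0.19 and -0.35). They were also called lower in ESC than with IWP2 (-0.32 and -0.50), and no further Bub3 probe set was called for IWP2 minus vehicle. Bub3 was called lower in ESC than with vehicle under 3 alternatives, and lower than with IWP2 under 7.

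At the centromere and kinetochore, where chromosomes meet spindle fibres, 4 of 7 genes rose with IWP2 and none fell. All 7 differed between ESC and vehicle, 5 lower and 2 higher in ESC, where 27.9% of all genes were lower and 38.7% higher. Cenpf, a large outer kinetochore protein of G2 and M phase, had signals of 10.27, 10.26 and 10.35 in ESC, 11.10, 11.06 and 11.15 with IWP2 and 10.83, 10.77 and 10.89 with vehicle. The groups were apart, with ESC lowest. ESC lay below vehicle (-0.53 ± 0.056, limma adjusted p = 1.59e-05), and IWP2 exceeded vehicle by 0.27 (adjusted p = 0.00444). Cenpa, the histone H3 variant that marks centromeres, gave 10.74, 10.75 and 10.74 in ESC, 11.44, 11.41 and 11.54 with IWP2 and 11.03, 10.90 and 11.10 with vehicle. It had the same order of groups, with 0.46 ± 0.066 for IWP2 minus vehicle (limma adjusted p = 0.000557) and -0.26 for ESC minus vehicle (adjusted p = 0.00557). For Cenpa, ESC minus vehicle was -0.14, and not called, with median centring, and -1.004 in the mean of all probe sets. Cenpe, the kinetochore kinesin, was lower in ESC than with vehicle (-0.47) and differed by 0.13 between IWP2 and vehicle, which was not called. Another Cenpe probe set, at a mean signal of 9.61, rose with IWP2 by 0.22 (limma adjusted p = 0.0248).

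The 4 subunits of the Ndc80 complex, which grips microtubule ends, differed in direction between ESC and vehicle. Spc24 read 9.71, 9.82 and 9.80 in ESC, 9.26, 9.18 and 9.23 with IWP2 and 8.997, 9.02 and 9.07 with vehicle, and Ndc80 read 8.77, 8.71 and 8.81 in ESC, 8.36, 8.42 and 8.41 with IWP2 and 8.29, 8.39 and 8.54 with vehicle. Both were higher in ESC than in either EpiSC group with no overlap, by 0.74 ± 0.055 for Spc24 (limma adjusted p = 1.02e-06) and 0.36 ± 0.070 for Ndc80 (adjusted p = 0.00133), each against vehicle. Spc25 read 9.98, 9.87 and 10.02 in ESC, 10.58, 10.58 and 10.69 with IWP2 and 10.25, 10.18 and 10.31 with vehicle, and Nuf2 read 8.99, 8.94 and 8.97 in ESC, 9.49, 9.49 and 9.40 with IWP2 and 9.33, 9.37 and 9.29 with vehicle. Both were lower in ESC with no overlap, at -0.29 ± 0.065 for Spc25 (limma adjusted p = 0.00275) and -0.36 ± 0.054 for Nuf2 (adjusted p = 0.000184). With IWP2 Spc25 rose by 0.37 and Spc24 by 0.19, while Nuf2 (0.13) and Ndc80 (-0.01, 95% interval -0.17 to 0.15) were not called. The Spc24 rise was lost when vehicle array 1 or 2 or IWP2 array 1 or 3 was left out, and the Ndc80 value turned to between 0.0032 and 0.064 under some alternatives.

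Of the 4 genes of the chromosomal passenger complex, which corrects faulty attachments, 2 were higher and 2 lower in ESC than with vehicle. Of all genes, 38.7% were higher and 27.9% lower. Aurkb, its Aurora kinase, had signals of 9.20, 9.25 and 9.34 in ESC, 10.20, 10.11 and 10.22 with IWP2 and 9.78, 9.63 and 9.72 with vehicle. IWP2 was highest, vehicle in between and ESC lowest, without overlap. Aurkb rose by 0.47 ± 0.064 with IWP2 (limma adjusted p = 0.000408), and ESC lay below vehicle (-0.45, adjusted p = 0.000152). Cdca8, which encodes the subunit borealin, gave 11.05, 10.96 and 10.98 in ESC, 11.58, 11.60 and 11.64 with IWP2 and 11.28, 11.10 and 11.24 with vehicle. It followed the same order, with 0.40 ± 0.062 for IWP2 minus vehicle (limma adjusted p = 0.000839) and -0.21 for ESC minus vehicle (adjusted p = 0.0121). That second difference was 0.082, and not called, when probe sets with names ending in _x_at or _s_at, which can match several transcripts, were left out.

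Birc5, which encodes survivin, read 11.20, 11.15 and 11.18 in ESC, 10.78, 10.72 and 10.63 with IWP2 and 10.83, 10.87 and 10.84 with vehicle. ESC was highest and IWP2 lowest, with no overlap between any of the groups. ESC exceeded vehicle by 0.33 ± 0.055 (limma adjusted p = 0.000454), and IWP2 minus vehicle was -0.14 (adjusted p = 0.0844, 95% interval -0.26 to -0.01), the lowest value of all members. Birc5 was called lower with IWP2 under 4 alternatives: genes above the median signal only, an offset of 32 before the logarithm, a variance trend with robust estimation, and the highly expressed genes only. Incenp, the scaffold of the complex, read 11.19, 11.21 and 11.23 in ESC, 11.02, 10.995 and 11.08 with IWP2 and 10.84, 10.79 and 10.83 with vehicle. It was highest in ESC and lowest with vehicle, without overlap, by 0.39 ± 0.051 for ESC minus vehicle (limma adjusted p = 8.41e-05) and 0.21 for IWP2 minus vehicle (adjusted p = 0.0105).

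All 5 spindle motors and assembly factors rose with IWP2, with a median of 0.47, the largest among roles with more than 2 genes. Kif2c, the microtubule-depolymerising kinesin MCAK, had signals of 10.02, 9.95 and 9.99 in ESC, 10.47, 10.43 and 10.57 with IWP2 and 9.94, 9.84 and 9.91 with vehicle. The IWP2 arrays lay far above the others, and ESC lay just above vehicle. Kif2c rose by 0.60 ± 0.058 (limma adjusted p = 4.25e-05), and ESC differed from vehicle by 0.09 (95% interval -0.04 to 0.22). Other Kif2c probe sets gave 0.26 and 0.24 for ESC minus vehicle, which were called, and -0.12, which was not. Tpx2, the activator of Aurora A on the spindle, read 9.75, 9.77 and 9.82 in ESC, 10.25, 10.29 and 10.30 with IWP2 and 9.81, 9.67 and 9.84 with vehicle. ESC and vehicle overlapped and IWP2 stood above both, by 0.50 ± 0.061 over vehicle (limma adjusted p = 0.000179), although another well-expressed Tpx2 probe set gave -0.04. Nusap1, a microtubule-bundling protein, rose by 0.47.

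Kif11, the motor Eg5 that separates spindle poles, read 9.35, 9.31 and 9.35 in ESC, 9.82, 9.84 and 9.95 with IWP2 and 9.64, 9.57 and 9.55 with vehicle. IWP2 was highest and ESC lowest, with 0.28 ± 0.057 for IWP2 minus vehicle (limma adjusted p = 0.00419) and -0.25 for ESC minus vehicle (adjusted p = 0.00294). That second call was lost with median centring (-0.13) and in the mean of all Kif11 probe sets (-0.073), of which the other 2 gave -0.03 and 0.06. For IWP2 minus vehicle those 2 gave 0.155 and 0.146, which were not called, while the mean of all Kif11 probe sets (0.19) was. Kif4, a chromosome-bound kinesin encoded on the X chromosome, read 9.40, 9.34 and 9.47 in ESC, 9.11, 8.86 and 9.03 with IWP2 and 8.73, 8.68 and 8.76 with vehicle. ESC was highest and vehicle lowest, with no overlap, and ESC exceeded vehicle by 0.68 ± 0.072 (limma adjusted p = 1.65e-05). Over 360 X-linked genes above the median signal, ESC minus vehicle had a median of 0.46, against -0.03 over 10606 autosomal genes. The part of this chromosome-wide difference in the Kif4 value was not tested. The rise of Kif4 with IWP2, 0.28, was lost without vehicle array 2, IWP2 array 1 or IWP2 array 3, and X-linked genes had a median of 0.01 in that comparison.

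Of the 5 genes of the spindle midzone and of cytokinesis, 3 rose with IWP2. Prc1, which bundles antiparallel midzone microtubules, had signals of 9.56, 9.58 and 9.61 in ESC, 10.29, 10.28 and 10.31 with IWP2 and 9.78, 9.66 and 9.85 with vehicle. IWP2 was highest and ESC lowest, without overlap. Prc1 rose by 0.53 ± 0.060 (limma adjusted p = 0.000115). ESC lay below vehicle by 0.18 (adjusted p = 0.0243), a call lost under 9 alternatives, among them leaving out vehicle array 1 or 3 or ESC array 1 or 2. Anln, anillin, the scaffold of the contractile ring, read 11.15, 11.09 and 11.16 in ESC, 10.78, 10.69 and 10.76 with IWP2 and 10.41, 10.37 and 10.47 with vehicle. It ran the other way, highest in ESC and lowest with vehicle, by 0.72 ± 0.054 for ESC minus vehicle (limma adjusted p = 1.29e-06) and 0.33 for IWP2 minus vehicle (adjusted p = 0.00129).

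Ect2, the exchange factor that activates RhoA at the cleavage plane, read 10.66, 10.56 and 10.56 in ESC, 10.48, 10.61 and 10.74 with IWP2 and 10.43, 10.20 and 10.03 with vehicle. Vehicle lay below both other groups, which overlapped, and the vehicle arrays were widely spread (SD 0.20). The difference was 0.39 ± 0.10 for IWP2 minus vehicle (limma adjusted p = 0.0158) and 0.37 for ESC minus vehicle (adjusted p = 0.00944). The IWP2 call was lost without vehicle array 3 or IWP2 array 3. Kif23, a kinesin of the centralspindlin complex, was -0.06 for IWP2 minus vehicle, which was not called, and 0.18 higher in ESC than with vehicle, a call lost without vehicle array 1 or ESC array 3. Kif20a, a further cytokinesis kinesin, was called in no comparison (IWP2 minus vehicle 0.13, 95% interval 0.02 to 0.25).

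At anaphase, 3 of 4 genes rose with IWP2. Espl1, separase, the protease that cuts cohesin, had signals of 9.53, 9.56 and 9.58 in ESC, 9.79, 9.69 and 9.74 with IWP2 and 9.37, 9.32 and 9.30 with vehicle. The groups did not overlap, with IWP2 highest and vehicle lowest. Espl1 rose by 0.41 ± 0.053 (limma adjusted p = 0.000263), and ESC exceeded vehicle by 0.23 (adjusted p = 0.00363). Pttg1, securin, which inhibits separase until anaphase, read 11.56, 11.56 and 11.53 in ESC, 12.04, 12.10 and 12.21 with IWP2 and 11.68, 11.57 and 11.81 with vehicle. IWP2 stood above vehicle, and ESC just below it. Pttg1 rose by 0.43 ± 0.072 (limma adjusted p = 0.00137), and ESC minus vehicle was -0.13 (95% interval -0.30 to 0.03).

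Ube2c, the ubiquitin-conjugating enzyme of the anaphase-promoting complex, read 12.19, 12.21 and 12.20 in ESC, 11.98, 11.92 and 11.88 with IWP2 and 11.79, 11.81 and 11.86 with vehicle. ESC was highest, and IWP2 lay just above vehicle. ESC exceeded vehicle by 0.38 ± 0.051 (limma adjusted p = 0.000109), and IWP2 minus vehicle was 0.11 (adjusted p = 0.148). Cdc20, the activator of the complex that the checkpoint restrains, rose by 0.25 with IWP2, a call lost without vehicle array 2 or IWP2 array 3. It did not pass in the other comparisons. The further Cdc20 probe sets were called higher in ESC than with vehicle (0.22 and 0.23, limma adjusted p = 0.00714 and 0.00931).

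Mki67, which encodes the Ki-67 protein that coats mitotic chromosomes and is widely used to mark dividing cells, had signals of 10.74, 10.69 and 10.73 in ESC, 11.92, 11.95 and 11.96 with IWP2 and 11.38, 11.32 and 11.44 with vehicle. The groups were far apart, with IWP2 highest and ESC lowest. The mean was 10.72 ± 0.024 in ESC, 11.94 ± 0.022 with IWP2 and 11.38 ± 0.06 with vehicle (SD, n = 3 each). Mki67 rose by 0.56 ± 0.053 with IWP2 (limma adjusted p = 3.35e-05), a 1.48-fold change with the smallest p among the members. ESC lay below vehicle (-0.66, adjusted p = 1.96e-06) and below IWP2 (-1.22, adjusted p = 1.7e-08), the lowest value of all members in both comparisons. Top2a, the topoisomerase that untangles sister chromatids, read 11.99, 12.02 and 12.01 in ESC, 12.38, 12.35 and 12.37 with IWP2 and 12.21, 12.15 and 12.20 with vehicle. It had the same order of groups with smaller steps, 0.18 ± 0.049 for IWP2 minus vehicle (limma adjusted p = 0.0177) and -0.18 for ESC minus vehicle (adjusted p = 0.0085). The rise was lost without vehicle array 2. Another Top2a probe set was higher in ESC than with vehicle, by 0.24, and the mean over all Top2a probe sets gave 0.085, which was not called.

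Of the 31 members that rose with IWP2, 21 had another probe set above the median signal, and in 13 of these such a probe set rose as well, with none falling. For ESC against vehicle, 16 of the 27 called members had one, in 12 it was called the same way and in 1 (Top2a) the opposite way. For ESC against IWP2 the counts were 22 of 35, 19 and 1 (Aurka).

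Other genes of mitosis, in lists that do not include the members, gave a mixed background to these values. Of all genes, 16.6% rose and 16.8% fell with IWP2, and 38.7% were higher and 27.9% lower in ESC than with vehicle. Of 36 further kinesins, spindle and cytokinesis genes, 24 rose with IWP2 and none fell (median 0.27), and 20 were higher and 7 lower in ESC than with vehicle (median 0.20). Aspm, a spindle pole protein, rose by 0.63 ± 0.061 (limma adjusted p = 4.24e-05), and Iqgap3, a scaffold protein, by 0.66 (adjusted p = 4.97e-05). In ESC Cep55, which recruits the abscission machinery, was 1.57 higher than with vehicle and Pimreg was lower (-1.34). Melk, a kinase of proliferating cells, was lower too (-0.38), and Kif14, a cytokinesis kinesin with a mean of 4.35 in ESC and 3.18 with vehicle, was higher (1.17).

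Condensin, which compacts mitotic chromosomes, gave 6 rises of 8 subunits and no fall with IWP2 (median 0.30), among them Ncapd2 (0.46) and Ncaph (0.41). In ESC 2 subunits were lower than with vehicle, Ncapd2 (-0.81) and Ncapg2 (-0.68), and 2 higher, Smc2 (0.23) and Ncapg (0.20). Of 15 genes of cohesin and its regulators, 6 rose and none fell with IWP2 (median 0.10). The largest of these were Sgo2a, shugoshin, which protects centromeric cohesin (0.87 ± 0.068, limma adjusted p = 9.96e-06), and Esco2, the acetyltransferase that locks cohesin (0.59). ESC had 6 higher and 5 lower than vehicle, with Esco2 (1.19) and the cohesin release factor Wapl (0.62) higher and Stag2 (-0.72) and Esco1 (-0.50) lower. These are 40% and 33.3% of the list, near the 38.7% and 27.9% of all genes.

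Among 31 other centromere and kinetochore genes 15 rose and 4 fell with IWP2 (median 0.17), and 17 were higher and 6 lower in ESC than with vehicle (median 0.31). Knl1, the outer kinetochore scaffold, rose by 0.56 and Kntc1, of the complex that brings dynein to kinetochores, by 0.50. Spdl1, which also recruits dynein, fell (-0.27), as did Mad1l1 (-0.44), the checkpoint partner of Mad2, at a low mean signal of 4.50 with IWP2 and 4.94 with vehicle. Inner kinetochore genes went both ways in ESC against vehicle, with Cenpi (1.90) and Cenpm (1.34) higher and Cenpk (-1.43) lower, as was Dsn1 of the Mis12 complex (-0.99). The 16 subunits and regulators of the anaphase-promoting complex gave 3 rises and 2 falls with IWP2 (median 0.03). Their shares of 18.8% and 12.5% lay near those of all genes (16.6% and 16.8%). Anapc1 (0.28) and the inhibitor Fbxo5 (0.28) rose and Cdc26 (-0.35) and Anapc4 (-0.19) fell. In ESC 7 were higher than with vehicle, led by Anapc7 (0.74) and Anapc10 (0.53), and 8 lower, led by Cdc26 (-0.64) and Anapc16 (-0.52).

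A list of 12 genes, regulators of Cdk1 together with other mitotic genes such as Ccnf and Haspin, gave 7 rises and 1 fall with IWP2 (median 0.22). Ccnf, cyclin F, was at 0.48, Cdc25b, a phosphatase that activates Cdk1, at 0.64 and Arpp19, an inhibitor of the phosphatase PP2A, at -0.32. In ESC 7 were higher and 2 lower than with vehicle, among them Ccnf (0.98) and the histone kinase gene Haspin (1.03), and, on the lower side, the Cdk-binding subunit gene Cks1b (-0.76) and Ensa, a relative of Arpp19 (-0.57). Of 17 genes of the MuvB core, the pocket proteins and the E2F and DP families, which repress or activate the mitotic genes, 4 rose and 3 fell with IWP2 (median 0.10). Rb1, the retinoblastoma gene, rose by 0.93 and Tfdp2 by 0.52, and E2f3 (-0.37) and Tfdp1 (-0.26) fell. In ESC 7 were higher and 4 lower than with vehicle, led by the pocket protein gene Rbl2 (2.25) and E2f2 (0.83), and by E2f7 (-0.93) and E2f5 (-1.24). The shares of this list were 23.5% and 17.6% with IWP2 (16.6% and 16.8% of all genes). In ESC they were 41.2% and 23.5%, near the 38.7% and 27.9% of all genes.

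Genes of another cell cycle step, the loading and firing of replication origins, are set beside these. Of 19, 8 rose and 2 fell with IWP2 (median 0.14), and 14 were higher and 1 lower in ESC than with vehicle (median 0.45). The members' medians in the same comparisons were 0.28 and 0.04. Cdt1, the licensing factor, read 0.36 for IWP2 minus vehicle and 0.97 for ESC minus vehicle, and Cdc6, which loads the helicase with it, 0.42 and 0.45. Orc2 (-0.32) and Gins4 (-0.16) fell with IWP2. In ESC Orc1 was higher than with vehicle (0.95) and Gins2 lower (-0.33). The difference between the mitotic and the origin genes was not tested.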

How the data were processed

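Signals of 9 arrays were analysed. The deposited values are on a log2 scale and were made by the authors with RMA (background correction, quantile normalization and probe summary); RMA and limma are named per the submitters' processing notes, with versions not given in the sources used here. Of 45101 probe sets, 64 are array controls, 932 carry several gene symbols and 34945 a single one, from the platform annotation; the symbols of 34741 matched RefSeq. With the highest-mean probe set per gene, 18193 genes entered a single limma 3.58.1 model of the 3 groups (functions lmFit, then eBayes; R 4.3.3; 9.58 total degrees of freedom). Benjamini-Hochberg adjustment ran over the 18193 genes, and a gene was called at an adjusted p below 0.05. No value columns were left unused. The procedure was tested on simulated data.

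The members, their roles, the other lists and the tests were chosen with earlier results of these data known. Genes named in full were Mki67, Cdk1, Plk1, Aurkb, Foxm1 and Mybl2 and, per role, up to 2 called genes with the smallest p in each direction for IWP2 and for ESC against vehicle; other lists named up to 2 on the same basis. Some names are current ones of older listed symbols (Sgo2a, Knl1, Wapl, Pimreg, Haspin). Promoter windows are RefSeq's on GRCm38.p6. The number of arrays limits precision: the median SE of a member's difference was 0.057. Signals depend on each probe set, so levels were not compared between single genes. Replicate numbers of the groups did not pair the arrays: same-numbered arrays' deviations from their group means had correlations of -0.060 to 0.051. Alternatives were averaged probe sets, no _x_at or _s_at probe sets, a signal filter, an offset of 32, repeated quantile and cyclic loess normalization, median centring, a variance trend, array weights, fitting only the arrays compared, a replicate block, a threshold of 0.01 and leaving out each array, with 2 added after the data were seen.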

Additional observations from a re-analysis of the deposited data

How the results depend on the processing

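Under 23 alternatives, 2 of them added after the data were seen, 22 of 31 members remained called for IWP2 minus vehicle, 19 of 27 for ESC minus vehicle and 29 of 35 for ESC minus IWP2. Leaving out 1 array at a time gave 26 to 31 higher, 0 to 0 lower and a median of 0.27 to 0.31 for IWP2 minus vehicle, 13 to 14, 11 to 14 and 0.029 to 0.057 for ESC minus vehicle, and 11 to 11, 23 to 25 and -0.32 to -0.28 for ESC minus IWP2. With the replicate number as a block, the counts were 30 and 0, 14 and 13, and 11 and 24, and the only member call it changed was that of Mybl2 with IWP2 (adjusted p = 0.0643). No paired result is reported because the numbers do not pair the arrays. Median centring gave a member median of 0.35 for IWP2 minus vehicle, 22 higher, 6 lower and a median of 0.16 for ESC minus vehicle, and a median of -0.26 for ESC minus IWP2. With only the highly expressed genes (30 members) there was 1 lower with IWP2 and a median of 0.33, 9 higher in ESC minus vehicle, and 6 higher with a median of -0.34 in ESC minus IWP2, where fewer members were tested. Birc5 was the 1 member lower with IWP2 there and with genes above the median signal (1), an offset of 32 (1) and the trended variance (1). The ESC minus IWP2 median was -0.27 with the mean of all probe sets and -0.36 with repeated quantile normalization. Values that turned sign, of which only Foxm1 in ESC minus vehicle and Aurka in ESC minus IWP2 were called after the turn (both with the mean of all probe sets), were as follows. For IWP2 minus vehicle, Kif23 was 0.064 with the mean of all probe sets and 0.016 with median centring, and Ndc80 was 0.015 (quantile), 0.0032 (loess), 0.064 (median centring), 0.035 (array weights), and -0.068 to 0.058 leaving out 1 array (positive without vehicle array 3 or IWP2 array 1). For ESC minus vehicle, the mean of all probe sets gave -0.10 for Ccna2, -0.22 for Foxm1, 0.097 for Pttg1 and 0.085 for Top2a. Without _x_at and _s_at probe sets Cdca8 was 0.082 and Pttg1 0.078, with repeated quantile Aurka was -0.029 and Cdc25c 0.027, and with median centring Bub3 was 0.041, Cdc25c 0.029 and Plk1 0.077. Tpx2 was -0.011 with array weights, -0.0078 with centring on highly expressed genes, and -0.049 to 0.040 leaving out 1 array (below 0 without vehicle array 2 or ESC array 3). Aurka was -0.0015 with that centring, and -0.0064 to 0.027 leaving out 1 array (below 0 without vehicle array 1 or ESC array 1), and Foxm1 was -0.0060 to 0.065 (below 0 without vehicle array 3). For ESC minus IWP2, the mean of all probe sets gave 0.20 for Aurka and -0.027 for Kif23, repeated quantile gave 0.026 for Foxm1, and Ect2 was 0.032 with median centring and -0.081 to 0.049 leaving out 1 array (above 0 without IWP2 array 3). The causes were not tested.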

Other observations

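Some further probe sets of the members, chosen here after their values were seen, departed from the probe set used for the gene by at least 0.5 on the log2 scale in at least 1 comparison. There were 10 of them, and the 7 with a mean signal above 5.24, the median of all values, are given here. The probe set 1438571_at of Bub1 read 4.27, 4.40 and 3.97 in ESC, 7.90, 8.15 and 7.97 with IWP2 and 7.56, 7.66 and 7.44 with vehicle. Its ESC arrays were thus far below all others, with -3.33 for ESC minus vehicle (limma adjusted p = 2.09e-09), where the probe set used gave -0.21. The probe set 1444416_at of Cenpa behaved alike, with 3.50, 4.37 and 4.18 in ESC, 7.69, 7.55 and 7.74 with IWP2 and 7.21, 7.12 and 7.36 with vehicle. ESC minus vehicle was -3.21 there (limma adjusted p = 1.18e-07), against -0.26 in the probe set used. For Foxm1, 1448834_at read 6.23, 6.45 and 6.24 in ESC, 7.35, 7.30 and 7.22 with IWP2 and 7.18, 7.05 and 6.96 with vehicle. ESC minus vehicle was -0.76 (limma adjusted p = 1.96e-05), where the probe set used gave 0.03 and was not called, and a further Foxm1 probe set gave -0.15 (limma adjusted p = 0.0431).

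In the opposite direction, Aurka 1440129_at gave 0.79 for ESC minus vehicle (limma adjusted p = 5.85e-06) at a mean signal of 5.57, where the probe set used gave 0.01. Tpx2 1428105_at, at a mean signal of 8.62, gave -0.04 for IWP2 minus vehicle (limma adjusted p = 0.709), against 0.50 in the probe set used. The remaining probe sets departed most in ESC minus IWP2. There, 1419620_at of Pttg1 gave 0.11 (limma adjusted p = 0.454), against -0.56 in the probe set used, and 1447518_at of Tpx2 gave 0.06 (limma adjusted p = 0.543), against -0.50.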
